A study of Homo sapiens with 36 samples.

Results

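AGO2 that lacks Phe182 (F182del) was set against wild-type AGO2 (WT-AGO2) by the miRNAs that each protein carried, in 6 immunoprecipitation libraries of the 36 libraries in the series, 3 of F182del and 3 of WT, over all 135 mature miRNAs of the table. HEK293T, an established human embryonic kidney cell line, was transfected with vectors for Flag/HA-tagged AGO2, either WT or F182del, together with a vector for green fluorescent protein. Tagged AGO2 was precipitated from the lysate on beads with an anti-HA antibody (IP), and small RNA was sequenced from the lysate (input) and from the IP. The 6 input libraries of the same groups and the 3 IP libraries of the Flag/HA-empty vector were used beside them. The cells still made their own AGO2, which carries no tag. Whether replicates were separate transfections is not stated in the labels, so that p-values measure the spread between these libraries, which may be technical.

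Argonaute proteins hold a small RNA of about the length of a miRNA in a groove, with its 5′ end and its 3′ end in separate pockets, and use bases near the 5′ end, the seed, to find target mRNAs. A miRNA precursor is loaded as a duplex, of which the guide strand stays in the protein while the passenger strand is expelled. Phe182 of AGO2 lies in the L1 region, in a hinge that lets a helix near the bound small RNA move.

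Of the 135 mature miRNAs, 133 reached 1 scaled RPM (RPM, the reads of a miRNA relative to all reads of its library, divided by the median-of-ratios factor of the library) in 2 or more libraries of WT or of F182del. With limma, 8 of these 133 (6.02%) passed both limits, adjusted p under 0.05 and log2 fold change beyond 1 in either direction, and are called here, of which 6 (4.51%) were higher and 2 (1.5%) lower with F182del. Higher were the passenger strands Mir-374-P2_3p*, Mir-582-v1_3p* and Mir-193-P1a_5p*, both arms of Mir-423, and Mir-671_3p, and lower were Mir-345_5p and Mir-320-P1_3p. The passenger strands among them had no reads in any WT IP library. They were tested through F182del alone and could only be called higher. In MirGeneDB names, P and a number mark paralogues, v a processing variant, and an asterisk the passenger strand. All 8 had 0 reads in each of the 3 empty vector IP libraries, which held 174 to 202 mature miRNA reads each. Libraries this shallow can miss miRNAs at such levels, so that background was not measured for the 8. At an unadjusted limma p below 0.05 there were 28 miRNAs (21.1%), 16 higher (12%) and 12 lower (9.02%), and 67 of the 133 (50.4%) had a log2 fold change above 0.

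Mature sequences are shown for the called miRNAs whose MirGeneDB name could be matched to a RefSeq name, and for the Mir-26 members and Mir-128, described with the passenger strands. RefSeq (GRCh38.p14) gave a sequence for 31 of 135 entries. Capitals mark the seed, bases 2 to 8 from the 5′ end.
Mir-423_5p: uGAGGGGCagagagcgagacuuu
Mir-423_3p: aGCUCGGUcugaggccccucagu
Mir-671_3p: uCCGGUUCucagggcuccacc
Mir-582-v1_3p*: uAACUGGUugaacaacugaacc
Mir-345_5p: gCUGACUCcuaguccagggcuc
Mir-26-P1_5p and Mir-26-P4_5p: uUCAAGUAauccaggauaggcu
Mir-26-P2_5p: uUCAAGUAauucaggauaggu
Mir-128-P1_3p and Mir-128-P2_3p: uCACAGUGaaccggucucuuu

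The 2 arms of Mir-423 lie at chr17:30117095-30117117 and chr17:30117131-30117153 on the plus strand, inside NSRP1 and over an exon of at least 1 of its transcripts in GENCODE v29. Mir-671_3p lies at chr7:151238488-151238508 on the plus strand, over an exon of at least 1 transcript of CHPF2. Mir-582_3p lies at chr5:59703630-59703651 on the minus strand, within PDE4D (intron), and RefSeq lists a single form, which was not compared with the v1 form. Mir-345_5p lies at chr14:100307876-100307897 on the plus strand, in no protein-coding gene. Among the 4 called higher, the seeds differ from one another. The 3 Mir-26 entries have 1 seed in common, and Mir-26-P1_5p and Mir-26-P4_5p share the whole sequence.

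Both arms of Mir-423 rose in the IP of F182del. Mir-423_5p had 176, 152 and 206 scaled RPM in WT replicates 1 to 3 and 756, 883 and 324 in F182del replicates 1 to 3. The groups did not overlap, and F182del replicate 3 was the lowest of its group. The log2 fold change on the log2(scaled RPM + 1) scale was 1.76 ± 0.34 (SE, n = 3 against 3; limma adjusted p = 0.0142), with an adjusted p of 0.183 without F182del replicate 1. Mir-423_3p had 142, 101 and 206 scaled RPM with WT and 368, 346 and 312 with F182del, again with no overlap. Its log2 fold change was 1.24 ± 0.29 (SE, n = 3 against 3; limma adjusted p = 0.0229). It lost the call without WT replicate 2 (limma adjusted p = 0.154), F182del replicate 1 (0.166) or F182del replicate 3 (0.0793). In the input, the log2 fold changes were -0.15 ± 0.47 (SE) and 0.02 ± 0.43 (SE), with limma adjusted p = 0.994 for each arm.

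Mir-671_3p, the partner of an arm known for directing AGO2 to cut a circular RNA, had 79.9, 33.8 and 46.4 scaled RPM with WT and 236, 282 and 117 with F182del. All F182del libraries lay above all WT libraries. The log2 fold change was 1.96 ± 0.44 (SE, n = 3 against 3; limma adjusted p = 0.0188), and the call was lost without WT replicate 2 (adjusted p = 0.0681) or F182del replicate 1 (adjusted p = 0.195).

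The passenger strands Mir-374-P2_3p*, Mir-582-v1_3p* and Mir-193-P1a_5p* had 0 reads in all 3 WT libraries, including WT replicate 1 with its 30793 mature miRNA reads. Mir-374-P2_3p* had 27, 4 and 30 reads in F182del replicates 1 to 3 (142, 51.2 and 59.6 scaled RPM; limma adjusted p = 0.0142). It outnumbered its partner Mir-374-P2_5p, the strand not marked as passenger, in each F182del library. Against 3 reads per WT library, or 13.6 scaled RPM on average, it was at least 6.17-fold higher, at least 4.58-fold without WT replicate 1, and at least 4.06-fold without F182del replicate 1. Mir-582-v1_3p* had 7, 4 and 31 reads (36.8, 51.2 and 61.6 scaled RPM; limma adjusted p = 0.0142), and was at least 3.66-fold higher by the same bound. Mir-193-P1a_5p* had 18, 2 and 14 reads (94.5, 25.6 and 27.8 scaled RPM; limma adjusted p = 0.0188), and was at least 3.62-fold higher, or at least 2.68-fold without WT replicate 1 and at least 1.96-fold without F182del replicate 1. These 3 strands had few reads in F182del replicate 2, the shallowest library with 3226 mature miRNA reads, and fitted fold changes against a group at 0 are not given since they depend on the pseudocount. The strands passed the filter through F182del alone and could only come out higher, so that their p-values are no support for a difference. Mir-374-P2_3p* and Mir-582-v1_3p* had 2 or 3 reads in inputs of F182del replicates 1 and 2 and none in the WT inputs, while Mir-193-P1a_5p* had none in any input of the 2 groups.

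Mir-345_5p fell. It had 178, 180 and 146 scaled RPM with WT and 84.0, 64.0 and 67.6 with F182del, with no overlap. The log2 fold change was -1.22 ± 0.32 (SE, n = 3 against 3; limma adjusted p = 0.0467). Leaving out any library but WT replicate 3 ended the call, with adjusted p = 0.132 and 0.186 without WT replicates 1 and 2 and 0.0615, 0.119 and 0.0793 without F182del replicates 1, 2 and 3.

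Mir-320-P1_3p belongs to a family whose precursor is known to be capped and made without Drosha. It had 190, 113 and 159 scaled RPM with WT and 68.3, 25.6 and 59.6 with F182del. The groups did not overlap, and the log2 fold change was -1.65 ± 0.45 (SE, n = 3 against 3; limma adjusted p = 0.0499). The adjusted p without a library was 0.139 and 0.0754 for WT replicates 1 and 2 and 0.0933, 0.118 and 0.0793 for F182del replicates 1, 2 and 3. The other 2 members, Mir-320-P2a_3p and Mir-320-P2b_3p, share their reads, which were 23, 3 and 3 with WT and 1, 0 and 2 with F182del (limma adjusted p = 0.216). All 3 members had the F182del libraries below the WT libraries, where 9.02% of all tested miRNAs did.

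**Figure D1:**
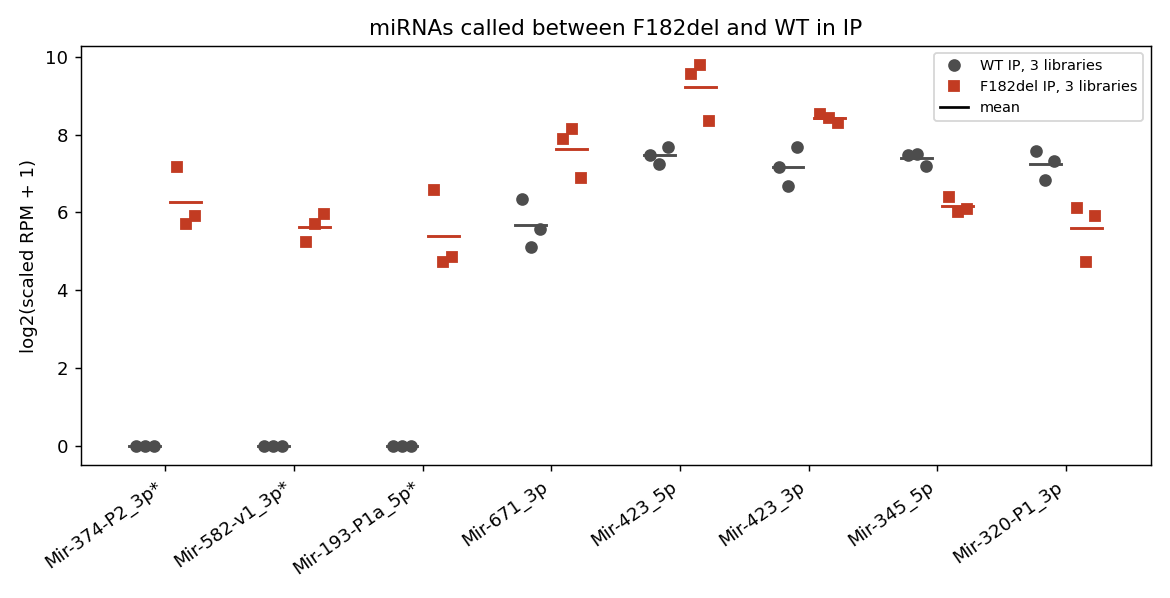
The 8 called miRNAs, with log2(scaled RPM + 1) of each IP library on the y axis (circles, WT; squares, F182del; bars, means of 3 libraries). The groups do not overlap for any of the 8, and the first 3, all passenger strands, are at 0 in the 3 WT libraries.

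Passenger strands took more of the mature miRNA reads in the IP of F182del. They made up 2.60%, 2.26% and 2.98% of these reads in WT replicates 1 to 3 and 3.85%, 3.50% and 4.50% in F182del replicates 1 to 3. The means were 2.61% ± 0.363 (SD, n = 3) and 3.95% ± 0.508 (SD, n = 3), a ratio of 1.51, and the groups did not overlap. This share was calculated after the values had been seen and is given as a description. Without Mir-221-P1a_5p*, the passenger strand with the most reads, the means were 1.95% ± 0.0758 (SD, n = 3) and 2.60% ± 0.350 (SD, n = 3), still with no overlap. Both shares include Mir-374-P2_3p*, Mir-582-v1_3p* and Mir-193-P1a_5p*, which had no reads in the WT IP libraries. A share without them was not calculated, so that the separation may rest on these strands. Passenger strands made up 1.43% ± 0.611 (SD, n = 3) of mature miRNA reads in the WT inputs and 1.71% ± 0.316 (SD, n = 3) in those of F182del, and the groups overlapped. Passenger here means the asterisk in the MirGeneDB name. Some of these strands outnumbered their partner, as Mir-181-P1a_3p* and Mir-181-P1b_3p* did in every WT and F182del IP library. Mir-374-P2_3p* did so in every F182del IP library.

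**Figure D2:**
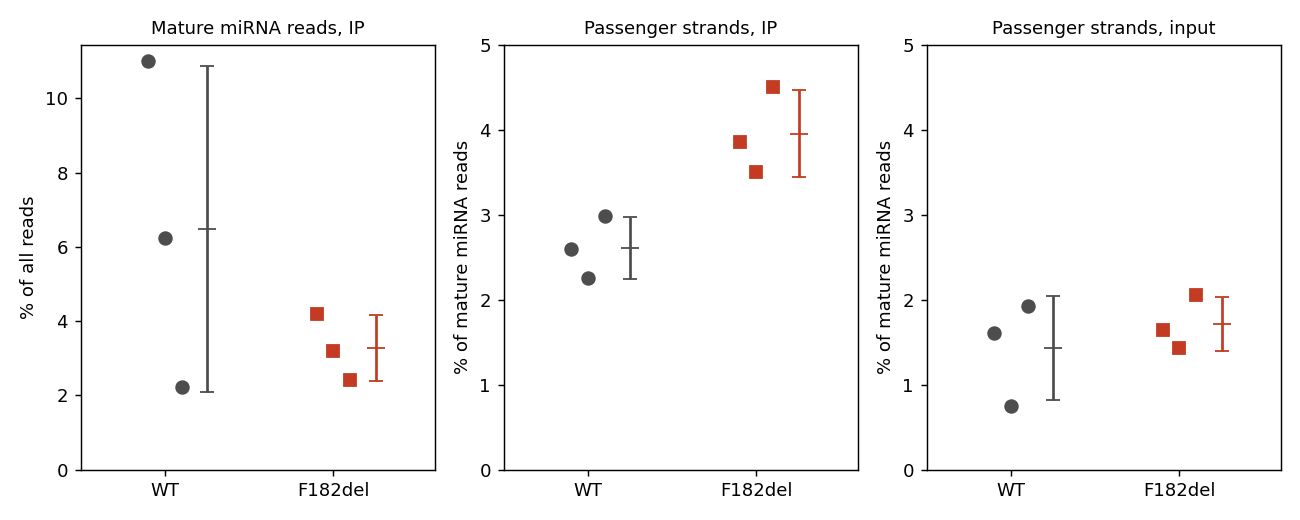
Shares per library (circles, WT; squares, F182del; cross-lines with bars, mean and SD of 3 libraries), as percent of all reads for mature miRNAs in IP (left) and as percent of mature miRNA reads for passenger strands in IP (middle) and input (right). The F182del libraries lie above the WT libraries only in the middle panel.

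Of 25 passenger strands, 24 were tested, and 14 had a log2 fold change above 0 and 10 below. By limma, 3 were called higher and none lower, where 6 (4.51%) and 2 (1.5%) of all 133 were. At an unadjusted limma p below 0.05, 7 were higher and 2 lower, where 16 (12%) and 12 (9.02%) of all 133 were. The F182del libraries lay above the WT libraries for 8 and below for 1, where 18 (13.5%) and 12 (9.02%) of all 133 did. The 3 called higher had no reads with WT and were tested through F182del alone, so that their direction was fixed. They are also among the 7 and the 8. The 2 lower, Mir-21_3p* and Mir-1910_5p*, were tested through WT alone. Of the 109 other strands, 3 were called higher and 2 lower, 9 were higher and 10 lower at an unadjusted p below 0.05, and the groups lay apart for 10 upward and 11 downward. The median log2 fold change was 0.52 for passenger strands, or 0.35 with strands at 0 in WT set to their bound and Mir-361-v1_3p* left out, which had at most 2 reads in a library. It was -0.06 for the other strands and 0.01 for all 133. With the RPM as deposited, the median was -0.08 for passenger strands and -0.85 for the others.

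Mir-221-P1a_5p*, whose guide is known for targeting a cell cycle inhibitor, had 248, 141 and 425 scaled RPM with WT and 478, 551 and 660 with F182del. The groups did not overlap, and the log2 fold change was 1.18 ± 0.34 (SE, n = 3 against 3; limma adjusted p = 0.0585). With the replicate number as a block it was called (limma adjusted p = 0.0135), which makes 9 calls (6.77%). Its guide strand Mir-221-P1a_3p had a log2 fold change of 0.27 (95% interval -0.46 to 0.99), with 573, 839 and 829 scaled RPM with WT and 1161, 487 and 1226 with F182del.

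Mir-128-P2_5p*, the passenger of a miRNA abundant in brain, had 33.1, 16.9 and 33.2 scaled RPM with WT and 99.8, 128 and 67.6 with F182del. The guide Mir-128-P2_3p had 145, 113 and 166 with WT and 52.5, 102 and 89.4 with F182del. The passenger had the F182del libraries above, and the guide below, those of WT, and neither was called (limma adjusted p = 0.0653 and 0.216). The log2 ratio of passenger over guide was -2.13, -2.73 and -2.32 in WT replicates 1 to 3 and 0.93, 0.32 and -0.40 in F182del replicates 1 to 3. The groups did not overlap. The difference was 2.68 ± 0.65 (SE, n = 3 against 3; limma adjusted p = 0.191), and Mir-128-P2 had the smallest p of the 23 pairs. The reads of the guide are nearly those of Mir-128-P1_3p, which has the same sequence. None of the 23 strand ratios was called by limma, and 2 (8.7%) had an unadjusted p below 0.05, Mir-128-P2 and Mir-340. Leaving out 1 library gave 1 call each without WT replicate 1 (Mir-92-P2d), F182del replicate 2 (Mir-361-v1) and F182del replicate 3 (Mir-340), all pairs with a strand at 0 reads in some libraries.

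Mir-181-P1a_3p*, from a family known in lymphocyte development, had 48.2, 33.8 and 33.2 scaled RPM with WT and 110, 76.8 and 91.4 with F182del, with no overlap (limma adjusted p = 0.173). Mir-92-P1a_5p* had 5, 4 and 0 reads with WT and 15, 2 and 17 with F182del (limma adjusted p = 0.216). Mir-21_3p* had 11, 3 and 2 reads with WT and 0, 0 and 4 with F182del (limma adjusted p = 0.216). Mir-21_3p* passed the filter through WT alone, so that its p-value is no support for a difference. The abundant passengers Mir-148-P1_5p*, Mir-130-P3b_5p* and Mir-126-P2-v1_5p* had log2 fold changes of -0.20 (95% interval -0.97 to 0.57), -0.09 (-0.82 to 0.64) and -0.02 (-0.93 to 0.88).

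**Figure D3:**
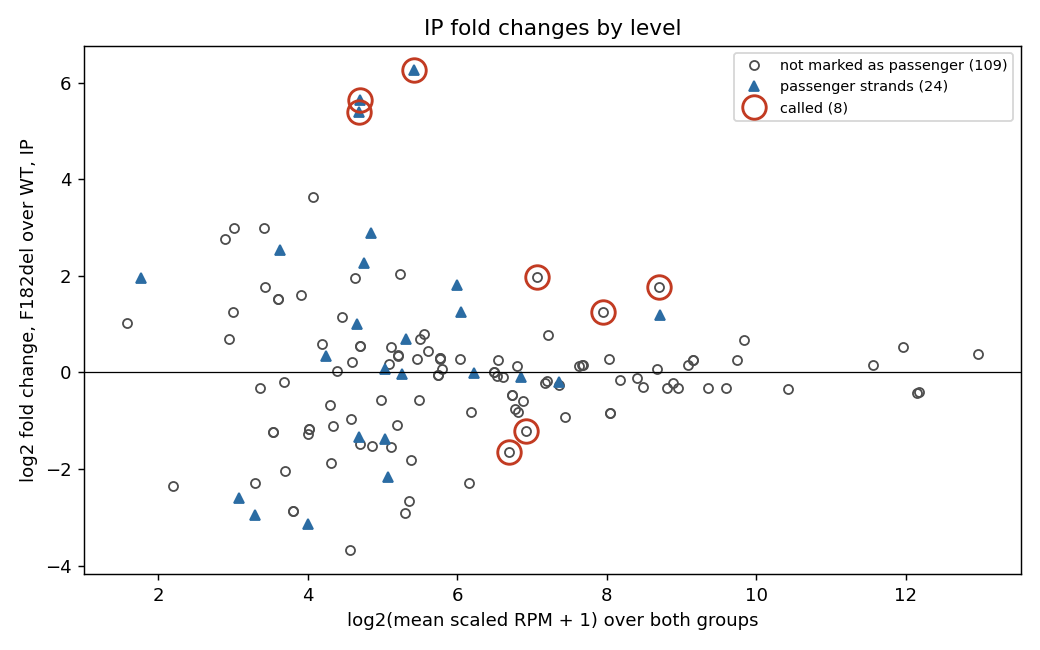
Log2 fold change of F182del over WT in IP (y axis) against log2 of the mean scaled RPM plus 1 over both groups (x axis) for the 133 tested miRNAs (triangles, 24 passenger strands; open circles, 109 others; large circles, 8 called). The 3 highest points are passenger strands, and the most abundant miRNAs lie near 0.

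The Mir-26 family, known to repress the histone methyltransferase EZH2, had all 3 entries with the F182del libraries below the WT libraries, where 9.02% of all tested miRNAs did, but 2 of the 3 entries are 1 set of values. Mir-26-P1_5p and Mir-26-P4_5p, the identical entries, had 310, 321 and 385 scaled RPM with WT and 163, 205 and 199 with F182del. The groups did not overlap, and the log2 fold change of -0.84 ± 0.24 (SE, n = 3 against 3; limma adjusted p = 0.0585) was below the fold limit for a call. With the replicate block the limma adjusted p was 0.0130. Mir-26-P2_5p, with the same seed, had 45.5, 73.2 and 59.7 scaled RPM with WT and 10.5, 0 and 41.7 with F182del (limma adjusted p = 0.216).

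In the Mir-17 family, which includes members of an oncogenic cluster, all 8 entries had log2 fold changes above 0, from 0.08 to 1.14 (median 0.61), none was called, and 1 had the F182del libraries above the WT libraries, near the 13.5% of all tested miRNAs that did. Mir-28, with 4 entries, had a median of 0.47. With the RPM as deposited, where the median of all miRNAs was -0.78, the medians of Mir-17 and Mir-28 were -0.21 and -0.33. Mir-28-P1_5p had 9.6, 16.9 and 13.3 scaled RPM with WT and 57.8, 89.6 and 33.8 with F182del (limma adjusted p = 0.182), and Mir-28-P1_3p had 119, 90.1 and 106 with WT and 289, 128 and 157 with F182del (limma adjusted p = 0.216). Both had the F182del libraries above the WT libraries, while the 2 arms of Mir-28-P2 were at 0.08 and 0.16. Of the Mir-30 family 3 entries of 9 were above 0 (median -0.06), and of the Mir-15 and Mir-103 family 2 of 8 (median -0.47). Let-7, a family known for timing of development, had 6 of 10 above 0 (median 0.16, and -0.64 with the RPM as deposited). Let-7-P2c2_5p had 43, 4 and 5 reads with WT and 0, 0 and 11 with F182del, and its groups lay apart once scaled (59.2, 22.5 and 33.2 against 0, 0 and 21.9 scaled RPM; limma adjusted p = 0.182). Mir-19-P1a_3p, of the same cluster as part of Mir-17, had 6, 0 and 0 reads with WT and 2, 3 and 19 with F182del (limma adjusted p = 0.173). Mir-196-P3_5p and Mir-196-P4_5p, encoded in HOX clusters, had 3, 0 and 0 reads each with WT, and 3, 1 and 3 or 3, 1 and 5 with F182del (limma adjusted p = 0.216 for each). The remaining Mir-196 entry, the only one averaging at least 20 scaled RPM, went the other way with a log2 fold change of -0.97. Mir-576_5p had 6, 0 and 0 reads with WT and 2, 2 and 7 with F182del (limma adjusted p = 0.216). The groups of Mir-196-P3_5p, Mir-196-P4_5p and Mir-576_5p lay apart once scaled, on at most 7 reads per library. Mir-19-P1a_3p, Mir-196-P3_5p, Mir-196-P4_5p and Mir-576_5p passed the filter through F182del alone, and Let-7-P2c2_5p through WT alone. This favours the direction seen, so that their separation and p-values are no support for a difference.

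**Figure D4:**
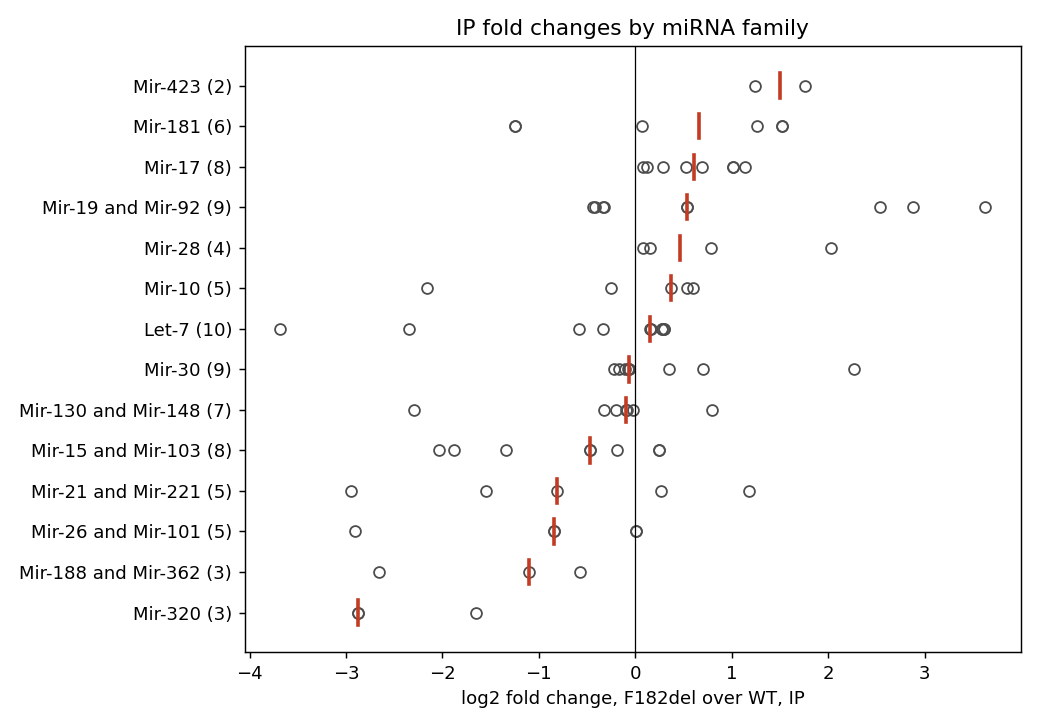
Log2 fold change of F182del over WT in IP (x axis) for the tested members (circles, with their number in brackets) of 14 family lists, with the median as a bar. All members of Mir-17, Mir-28 and Mir-423 lie above 0, and those of Mir-320 and of Mir-188 and Mir-362 below, after scaling. With the RPM as deposited, every median but that of Mir-423 lies below 0.

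The most abundant miRNAs were not called. Mir-10-P1c-v1_5p, encoded in a HOX cluster, had 7067, 6710 and 6991 scaled RPM with WT and 10397, 9078 and 7630 with F182del. The groups did not overlap, and the log2 fold change was 0.37 (95% interval -0.32 to 1.07; limma adjusted p = 0.578). It took 16.7% to 18.5% of mature miRNA reads in the WT libraries and 21.0% to 22.4% in those of F182del. Mir-92-P1a_3p, of an oncogenic cluster, had 6761, 4644 and 4398 scaled RPM with WT and 5230, 4008 and 2786 with F182del, with overlap (log2 fold change -0.41, 95% interval -1.13 to 0.30). Mir-191_5p had 420, 636 and 1161 with WT and 971, 1268 and 1011 with F182del, also with overlap. Mir-148-P1_3p, outside the 10 and named after its values were seen, had 499, 535 and 451 with WT and 415, 358 and 411 with F182del, with groups apart by a small margin (log2 fold change -0.32, 95% interval -0.79 to 0.15). Among the other 9 of the 10 most abundant, the log2 fold change lay between -0.44 (Mir-92-P1c_3p) and 0.67 (Mir-191_5p; limma adjusted p = 0.264).

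Mir-1910_5p*, Mir-375_3p, Mir-589_5p and Mir-769_5p had log2 fold changes below 0 and were not called by limma. The study names them, beside Mir-345_5p, as significantly less associated with this variant. Its test was a count model (DESeq). No count model was fitted here, so that the missing calls cannot be set directly against that test. Mir-1910_5p* had 32, 3 and 2 reads with WT and 3, 0 and 0 with F182del (limma adjusted p = 0.216). It passed the filter through WT alone, which favours a lower value with F182del. Mir-375_3p, known from pancreatic islets, had 41, 0 and 3 reads with WT and 5, 0 and 5 with F182del (limma adjusted p = 0.818). Mir-589_5p had 39.9, 95.7 and 19.9 scaled RPM with WT and 15.8, 25.6 and 17.9 with F182del (limma adjusted p = 0.574). Mir-769_5p had 342, 186 and 153 scaled RPM with WT and 178, 89.6 and 87.4 with F182del. Its groups overlapped, with a log2 fold change of -0.92 ± 0.38 (SE; limma adjusted p = 0.216, and 0.0135 with the replicate block).

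In the inputs, limma called 0 of 114 miRNAs, with 9 (7.89%) at an unadjusted p below 0.05. Of the 8 called in IP, 7 could be tested there. The median absolute log2 fold change of the 112 miRNAs tested in both was 0.54 in IP and 0.24 in the input. Input levels were lower, so that the 1 RPM added before the log shrinks input fold changes more than those in IP. Mir-423_5p averaged 4.91 and 4.51 scaled RPM in the WT and F182del inputs, against 178 and 655 in IP. How much of the smaller input values comes from this was not tested. The interaction of fraction and genotype was called by limma for 1 of 135 miRNAs (0.741%), Mir-193-P1a_5p* (adjusted p = 0.0441), with 17 (12.6%) at an unadjusted p below 0.05. With the culture, which gave both IP and input, as a block, limma called 6 (4.44%), namely Mir-193-P1a_5p* (adjusted p = 0.00873), Mir-423_5p (0.00873), Mir-221-P1a_5p* (0.0174), Mir-374-P2_5p (0.0270), Mir-130-P4a_5p (0.0275) and Mir-1910_5p* (0.0275). For Mir-423_5p the difference between F182del and WT was larger in IP than in the input by 1.89 on the log2 scale, and for Mir-221-P1a_5p* by 1.37, with the same limit from low input levels. Mir-193-P1a_5p*, Mir-374-P2_5p, Mir-130-P4a_5p and Mir-1910_5p* had no reads in at least 1 IP library, so that the size of their interactions depends on the pseudocount. Without the block, no interaction was called once any WT library or F182del replicate 3 was left out.

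**Figure D5:**
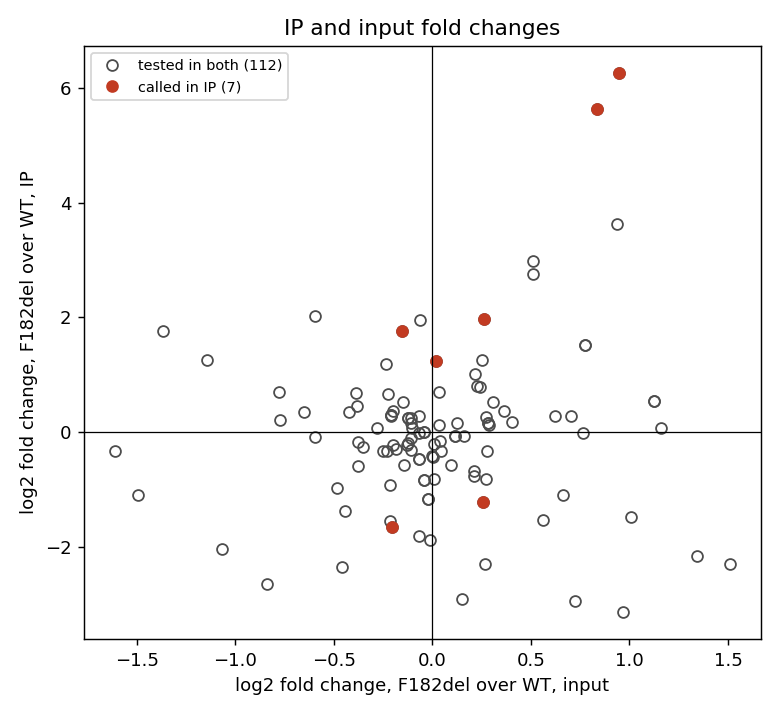
Log2 fold change of F182del over WT in IP (y axis) against that in the input (x axis) for the 112 miRNAs tested in both (filled, 7 of the 8 called in IP). The input values lie between -1.61 and 1.51, and those of Mir-423 lie near 0. Input levels were lower, so that the added 1 RPM shrinks the input values more.

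Mature miRNAs made up 11.0%, 6.24% and 2.23% of all reads in WT replicates 1 to 3 of IP and 4.19%, 3.19% and 2.42% in F182del replicates 1 to 3. Counting error was small beside these differences, with 95% Wilson intervals of 10.9% to 11.1% in WT replicate 1 and 3.08% to 3.30% in the shallowest library, F182del replicate 2. The means were 6.49% ± 4.39 (SD, n = 3) and 3.27% ± 0.886 (SD, n = 3), and did not differ beyond the spread between libraries (p = 0.4 in a two-sided exact permutation test, which cannot go below 0.1 here). Relative to the input of the same replicate, IP was enriched 19.3, 26.4 and 9.65 times with WT and 14.6, 10.6 and 8.92 times with F182del (exact permutation test, two-sided, n = 3, p = 0.3). Less tagged protein and less miRNA per protein cannot be told apart in these libraries. At 1 RPM or more, 128, 111 and 118 mature miRNAs were listed with WT and 125, 101 and 132 with F182del (exact permutation test, two-sided, n = 3, p = 1). At a common depth of 3226 mature miRNA reads, 109 ± 3.89 (SD, n = 3) and 110 ± 7.98 (SD, n = 3) were to be expected.

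The IP libraries held 101201 to 754009 reads, of which 3226 to 30793 were on mature miRNAs. Of the values in the 6 IP libraries, 95 were 0, 20 were 1 read and 63 were 2 reads, so that a strand at 0 may lie below what these depths show. Bounds from 3 reads reflect counting alone, because without molecular identifiers several reads can stem from 1 molecule. Over 29 distinct sequences with a RefSeq match, GC content ranged from 27.3% to 72.7%, and Spearman's rho of GC content and log2 fold change was 0.000247, as a description across miRNAs, which share libraries. Of 12 miRNA families looked up as markers of liver, blood, muscle, neurons and endocrine cells, Mir-128 (0.441% to 0.868% of mature miRNA reads) and Mir-375 (0% to 0.133%) were among the entries. Other marker families were not looked up, and their part in the results was not tested.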

How the data were processed

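Small RNA libraries (TruSeq Small RNA kit, single-end) were made from input and anti-HA IP. The authors trimmed, filtered and mapped the reads with sRNAbench against MirGeneDB and deposited RPM, relative to all reads of a library, for 135 mature miRNAs. The labels name GRCh38. All values (100%, tolerance 1e-06 of a read) were whole multiples of 1 read, from which reads and depth (101201 to 754009 reads per IP library) were inferred. How reads shared between miRNAs were adjusted is not given in the sources used here, and 22 entries form 11 sets of identical values.

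IP and input tables were scaled by median-of-ratios factors (83 miRNAs above 0 in all 6 IP libraries) and tested with limma 3.58.1 in R 4.3.3 (lmFit, eBayes with trend) on log2(scaled RPM + 1), two-sided, with Benjamini-Hochberg adjustment. The interaction was fitted over IP and input together, and strand ratios on the log2 ratio of passenger to guide, each as CPM + 1. Shares were compared by exact permutation tests. The fit was tested on simulated data with changes larger than those of the called miRNAs that had reads with WT. Smaller changes and miRNAs with very few reads were not covered. Since the deposited values are not established as counts, no count model was fitted. Read numbers, bounds from reads, Wilson intervals and numbers at a common depth rest on the inferred reads. The main fits had no replicate block, so that their p-values are unpaired. As an alternative, replicate numbers were treated as pairs, because deviations from group means correlated between same-numbered IP libraries (0.34, 0.18 and 0.11). Blocked values are given where they change a call. Named were all called miRNAs, those the study names for F182del, the 10 most abundant, and the 8 uncalled with the smallest p; other passenger strands and family members were named after their values were seen. Members and lists were chosen with earlier results of these data known. Alternatives were other scalings, pseudocounts and filters, a fit of all 5 AGO2 groups, the block and each library left out. Genes around miRNAs are from GENCODE v29, sequences from RefSeq GRCh38.p14.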

Additional observations from a re-analysis of the deposited data

Results flagged for a closer look

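The difference between F182del and WT itself differed between IP and input for Mir-193-P1a_5p* (limma interaction 3.73 on the log2(scaled RPM + 1) scale, adjusted p = 0.0441). It had 18, 2 and 14 reads in the IP of F182del, 0 in the IP of WT and 0 in all 6 inputs, so that the size of the interaction depends on the pseudocount. The strand was tested through the IP libraries of F182del alone, which fixed the direction.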

How the results depend on the processing

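The 8 calls in IP became 2 with the RPM as deposited, 4 with all 5 AGO2 groups in 1 fit, and 3 to 10 when 1 library was left out (4 without WT replicate 2, 3 without F182del replicate 1). CPM, both other pseudocounts, both other filters and factors divided by their geometric mean, chosen after seeing the data, gave 7 to 9, and the replicate block 9. The RPM as deposited kept the calls of Mir-374-P2_3p* and Mir-582-v1_3p* alone, and the fit of all AGO2 groups lost those of Mir-423_3p, Mir-671_3p, Mir-345_5p and Mir-320-P1_3p. Mir-374-P2_3p* and Mir-582-v1_3p* were called under all 15 alternatives, Mir-320-P1_3p lost its call under 11 and Mir-345_5p under 7. Since Mir-374-P2_3p* and Mir-582-v1_3p* had no reads in the WT IP libraries, their direction was fixed in each alternative. The block changed the call of Mir-221-P1a_5p* and no other among the named miRNAs in IP. The cause of these changes was not tested. Count models were not run, since the deposited values are not established as counts.

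With the RPM as deposited, where the median log2 fold change of all miRNAs was -0.78, Mir-10-P1c-v1_5p (-0.43), Mir-10-P1b-v1_5p (-0.27), Mir-186_5p (-0.65), Mir-191_5p (-0.13) and Mir-221-P1a_3p (-0.54) changed sign. With 1 library left out, the log2 fold change ranged from -2.34 to 0.80 for Mir-375_3p, -0.069 to 0.40 for Mir-186_5p, -0.010 to 0.75 for Mir-221-P1a_3p and -0.73 to 0.076 for Mir-378_3p. None of these was called. F182del had 0.333 more listed miRNAs on average, but -6.67 when 3 reads were required, and -6 to 9.5 when 1 library was left out. Strand ratios gave 0 to 1 calls and interactions 0 to 1 when 1 library was left out, and interactions gave 0 with a pseudocount of 10 RPM and 6 with the culture as a block. No input call arose under any alternative run. The reads limit what can be seen: 3 reads in each WT library average 13.6 scaled RPM.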
